A study of Mus musculus with 6 samples.

Results

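A set of 10 genes that mark hepatocytes around the central vein and respond to Wnt signalling was followed in mouse liver RNA. They are Glul, Axin2, Lgr5, Rnf43, Znrf3, Tbx3, Slc1a2, Oat, Rgn and Cyp2e1. The 10 were chosen by symbol from a table of 56674 gene rows, each matched 1 row, and 10 of 10 passed the filter on low counts. The mice were C57BL/6 males, a common inbred strain, reared for 71 weeks. Exposed mice ate chow with polypropylene black microplastic added (PB-MP), which gave 3 libraries, and control mice ate normal chow, which gave another 3. No transgene, deletion or other agent is named for either group, and the amount of plastic in the chow is not given in the labels. Whether each library is a separate animal is not stated in the labels, and a p-value here can therefore reflect technical spread alone.

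Liver lobules are organised around a central vein, and hepatocytes next to it carry out other tasks than those near the portal tract. Endothelial cells of the central vein secrete Wnt ligands and R-spondin, which stabilise beta-catenin in neighbouring hepatocytes and switch on a pericentral programme of glutamine synthesis and drug metabolism. Beta-catenin acts on DNA through TCF/LEF factors, and several of the genes it induces, Axin2, Rnf43 and Znrf3 among them, feed back to dampen the signal.

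RefSeq promoter windows (assembly GRCm38.p6, 250 bases before to 50 after a transcription start) were available for 6 of the 10 genes, in 7 windows. They were searched on both strands for 4 overlapping forms of the TCF/LEF core motif, CTTTGAA or CTTTGAT with A after the G, and CTTTGTA or CTTTGTT with T after it. A match was present in 2 of the 7 windows, those of Cyp2e1 and Slc1a2, and in 16.9% of the 32851 windows of the table. Both are printed here because no other window of these genes held a match. Capitals mark it, and in Slc1a2 it lies on the opposite strand. The Cyp2e1 window is chr7:140763569-140763868 on the plus strand, and the Slc1a2 window is chr2:102706188-102706487 on the plus strand, at a start inside the annotated gene.
Cyp2e1 promoter: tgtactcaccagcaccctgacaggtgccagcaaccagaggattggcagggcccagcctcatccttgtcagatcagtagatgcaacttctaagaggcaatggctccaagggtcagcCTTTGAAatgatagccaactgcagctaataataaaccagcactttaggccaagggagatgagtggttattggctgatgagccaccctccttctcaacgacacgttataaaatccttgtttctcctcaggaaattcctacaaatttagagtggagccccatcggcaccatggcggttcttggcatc
Slc1a2 promoter: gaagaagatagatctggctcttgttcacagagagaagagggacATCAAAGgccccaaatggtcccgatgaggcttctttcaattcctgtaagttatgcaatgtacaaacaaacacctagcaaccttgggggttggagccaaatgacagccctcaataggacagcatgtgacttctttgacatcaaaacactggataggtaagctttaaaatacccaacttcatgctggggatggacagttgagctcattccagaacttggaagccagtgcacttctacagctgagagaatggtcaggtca
The matched letters began 135 bases before the start in Cyp2e1 and 207 bases before it in Slc1a2. A match describes letters only, and windows of Glul, Oat, Axin2 and Rnf43 held none.

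The libraries held 70603124 to 90483598 counted reads in PB-MP and 68357478 to 112566641 in control. Levels are given as CPM, read counts per library scaled to a common total after adjustment by the trimmed mean of M-values (TMM). On that scale 3 reads, the most that an observed 0 leaves room for, correspond to 0.0285 to 0.0495 CPM. Such limits cover counting error only. The TMM factors separated the groups, at 1.04 to 1.118 in PB-MP and 0.887 to 0.961 in control, as did the share of reads from mitochondrial mRNAs, at 8.73% to 10.1% in PB-MP and 14.2% to 15.1% in control. The 18S ribosomal RNA row took its largest shares in PB-MP replicate 2 (9.42%) and control replicate 2 (11.2%), and 0.707% to 3.61% in the other 4 libraries. The hepatocyte marker Alb, which encodes albumin, was abundant in every library, at 49897 to 54433 CPM in PB-MP and 47165 to 56244 CPM in control.

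No difference between PB-MP and control passed the threshold for any of the 10 genes. At an adjusted p below 0.05, 0 of 10 were called, as were 0 of all 17871 genes tested (0%; edgeR quasi-likelihood test with Benjamini-Hochberg adjustment). At an unadjusted p below 0.05 there were 0 of the 10 genes, against 12.1% of all genes. The groups overlapped for each of the 10, while they did not overlap for 19.8% of all genes. DESeq2 likewise called 0 of the 10 against 2.46% of the genes to which it gave an adjusted p, and limma-voom called 0 of the 10 against 0% of all genes. Estimates lay below 0 for 7 of the 10, against 49.4% of all genes, and their median log2 fold change was -0.12, against 0.0067 over all genes tested. With library size as the only scaling the median of the 10 turned to 0.11, while that of all genes stood at 0.23.

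**Figure D1:**
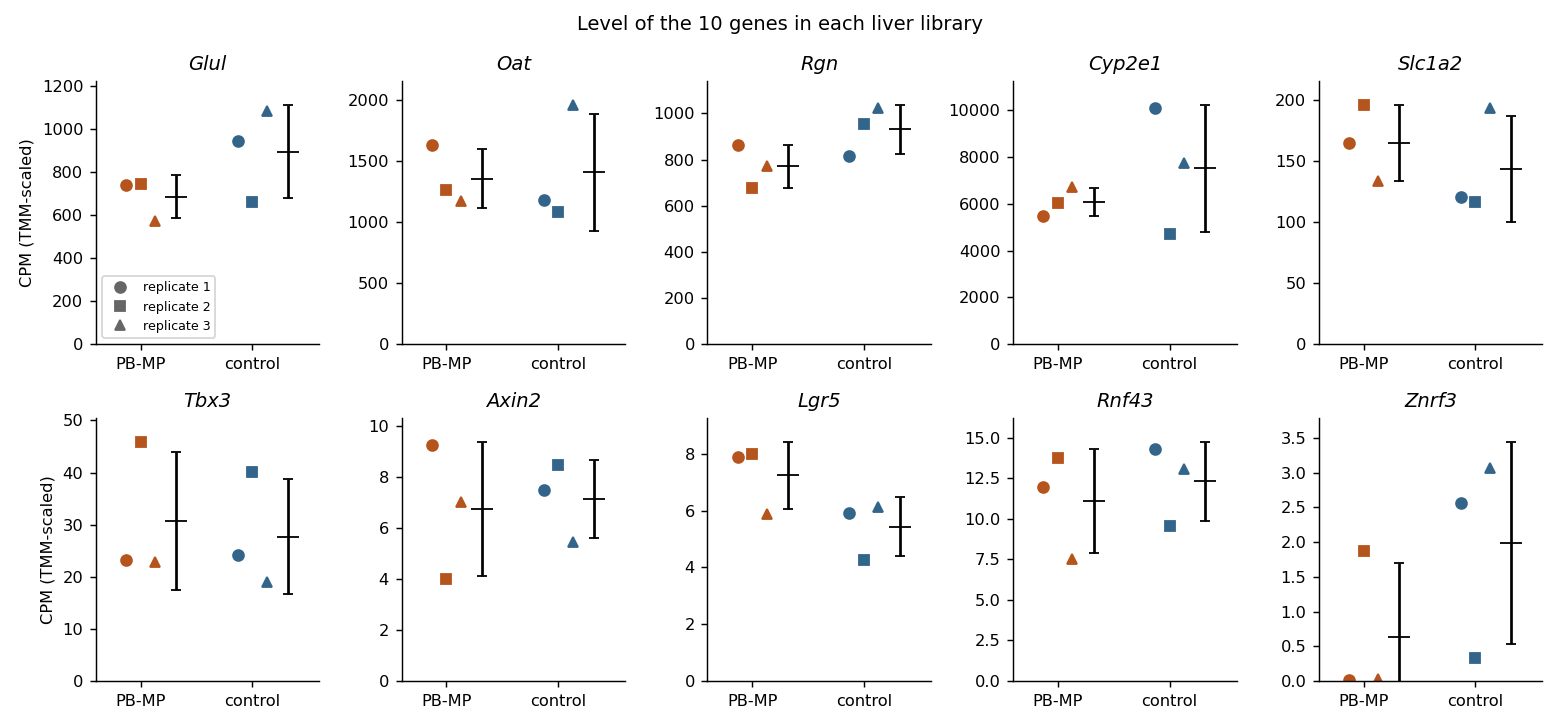
Level of each of the 10 genes in the 3 PB-MP and 3 control libraries, in TMM-scaled CPM on linear axes from 0. Symbols mark the replicates, and the bar beside each group is the mean with its SD (cut at 0 for Znrf3); the points of the 2 groups overlap in every panel.

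The 95% intervals give a range for each difference under TMM scaling. Like the p-values, they can reflect technical spread alone. For 7 of the 10 genes the interval stayed inside -1 to 1 on the log2 scale (Glul, Oat, Rgn, Slc1a2, Axin2, Lgr5 and Rnf43), against 45.7% of all genes and 62.8% of genes at a mean of at least 1 CPM. It reached past that range for Cyp2e1 and Tbx3 by a small margin and for Znrf3 widely. The number within -1 to 1 was 6 with library size as the only scaling. It was 3 without PB-MP replicate 1, 4 without PB-MP replicate 2 and 4 without control replicate 3.

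The metabolic enzymes of the programme were its most abundant transcripts. Glul encodes glutamine synthetase, which fixes ammonia that escaped the urea cycle, in a narrow ring of cells around the vein. Its level in replicates 1 to 3 was 739, 745 and 570.2 CPM in PB-MP, against 943, 658 and 1082 CPM in control. Control replicates 1 and 3 were above every PB-MP library, and control replicate 2 lay within the PB-MP range. Glul averaged 685 ± 99.1 CPM in PB-MP and 894 ± 216 CPM in control (SD, n = 3 each), with a log2 fold change of -0.39 ± 0.23 (SE; 95% interval -0.94 to 0.17, edgeR adjusted p = 0.549). Without control replicate 2 the estimate was -0.59 ± 0.20, with all 3 PB-MP libraries below both remaining controls. Its unadjusted p was 0.0236 in the edgeR fit over all genes, and its adjusted p was 0.221. In that fit 3338 genes had an unadjusted p below 0.05, against 2161 with all 6 libraries. The Glul estimate was -0.24 without control replicate 3, -0.27 without PB-MP replicate 3 and -0.17 with library size as the only scaling.

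Cyp2e1 encodes a cytochrome P450 that oxidises ethanol and small xenobiotics. Its level was 5486, 6043 and 6709 CPM in PB-MP, against 10121, 4709 and 7741 CPM in control. The PB-MP libraries were close together, and the controls held both the highest and the lowest value. On the log2 scale the SD was 0.15 in PB-MP and 0.56 in control, where the median SD of all genes was 0.32 in PB-MP and 0.32 in control. Its log2 fold change was -0.31 ± 0.31 (95% interval -1.03 to 0.42, edgeR adjusted p = 0.726). It was -0.045 without control replicate 1 and -0.58 without control replicate 2, the value without control replicate 2 at an unadjusted p of 0.0458 in the edgeR fit and an adjusted p of 0.273.

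Oat encodes ornithine aminotransferase, which passes ornithine carbon towards glutamate next to the glutamine-synthesising cells. Oat stood at 1631, 1263 and 1173 CPM in PB-MP, against 1178, 1083 and 1958 CPM in control. Control replicate 3 was the highest library and control replicate 2 the lowest, and the 3 PB-MP libraries and control replicate 1 lay in between. The log2 fold change was -0.053 ± 0.28 (95% interval -0.71 to 0.60), and its sign turned with library size as the only scaling (0.17), without PB-MP replicate 3 (0.039) and without control replicate 3 (0.25).

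Rgn encodes regucalcin, a calcium-binding gluconolactonase that in mice takes part in vitamin C synthesis. It stood at 862, 675 and 773 CPM in PB-MP and 815, 954 and 1023 CPM in control. PB-MP replicate 1 alone exceeded a control library. The log2 fold change was -0.27 ± 0.18 (95% interval -0.70 to 0.15, edgeR adjusted p = 0.582), and it was -0.048 with library size as the only scaling.

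Slc1a2 encodes a glutamate transporter that pericentral hepatocytes use to take up glutamate for glutamine synthesis. Its level was 165, 196 and 134 CPM in PB-MP, against 120.3, 117 and 194 CPM in control. Control replicate 3 was just under the highest PB-MP library, and control replicates 1 and 2 were below all of PB-MP. Slc1a2 had a log2 fold change of 0.20 ± 0.25 (95% interval -0.39 to 0.79), opposite in sign to that of Glul. Control replicate 1 was the second highest library for Glul and the second lowest for Slc1a2.

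Tbx3 encodes a T-box transcription factor and beta-catenin target. Its level was 23.2, 45.9 and 22.9 CPM in PB-MP, against 24.1, 40.0 and 18.9 CPM in control. Replicate 2 of each diet was the high library, at well above the other 4, and these are the libraries with the largest share of 18S ribosomal RNA reads. The part of that share in the Tbx3 level was not tested. Its log2 fold change was 0.15 ± 0.38 (95% interval -0.74 to 1.04), and it was -0.27 without PB-MP replicate 2 and -0.064 without control replicate 3. An annotated opposite-strand transcript, Tbx3os1, overlaps Tbx3 and had 147 to 247 reads in PB-MP and 51 to 243 in control, beside 1829 to 3886 Tbx3 reads in PB-MP and 1759 to 2427 in control. Without a stated strand setting, reads of the pair cannot be told apart.

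The feedback genes and the receptor were expressed at a far lower level than the enzymes. Axin2 encodes a scaffold of the complex that degrades beta-catenin and is widely read as a reporter of Wnt activity. Its level was 9.26, 3.98 and 7.01 CPM in PB-MP, against 7.48, 8.48 and 5.45 CPM in control. PB-MP replicate 1 held the highest value and PB-MP replicate 2 the lowest, so the whole control range lay inside that of PB-MP. The log2 fold change was -0.080 ± 0.34 (95% interval -0.88 to 0.72, edgeR adjusted p = 0.944). Its sign turned with library size as the only scaling (0.16), without PB-MP replicate 2 (0.19) and without control replicate 2 (0.032).

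Lgr5 encodes a receptor for R-spondins that marks pericentral hepatocytes. Lgr5 had the highest estimate of the 10, at 7.87, 7.98 and 5.87 CPM in PB-MP, against 5.93, 4.26 and 6.12 CPM in control. PB-MP replicates 1 and 2 exceeded every control, and PB-MP replicate 3 was just under control replicates 1 and 3. Lgr5 averaged 7.24 ± 1.19 CPM in PB-MP and 5.44 ± 1.03 CPM in control (SD, n = 3 each), a log2 fold change of 0.41 ± 0.24 (95% interval -0.14 to 0.97, edgeR adjusted p = 0.521). With library size as the only scaling the estimate was 0.62, at an unadjusted p of 0.0422 in the edgeR fit and an adjusted p of 0.296. Without control replicate 2 it was 0.24.

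Rnf43 and Znrf3 encode paired membrane ubiquitin ligases that remove Frizzled receptors from the cell surface, and R-spondins act by clearing them. Rnf43 stood at 11.97, 13.8 and 7.55 CPM in PB-MP, against 14.3, 9.57 and 13.1 CPM in control. The lowest library was PB-MP replicate 3, followed by control replicate 2, and the log2 fold change was -0.15 ± 0.28 (95% interval -0.81 to 0.51). Its sign turned with library size as the only scaling and without PB-MP replicate 3 (0.059 and 0.061).

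Znrf3 varied far more than its partner. It had 1, 158 and 3 reads in PB-MP replicates 1, 2 and 3, against 187, 20 and 323 reads in control replicates 1, 2 and 3, or 0.0127, 1.87 and 0.0308 CPM in PB-MP and 2.57, 0.330 and 3.07 CPM in control. Each diet thus held libraries with ample and with few Znrf3 reads, and 2 PB-MP libraries were at or under the limit of 3 reads. The fitted log2 fold change was -1.65 ± 1.52 (95% interval -5.24 to 1.94, edgeR adjusted p = 0.700), and DESeq2 also gave -1.65. Nearly all PB-MP reads came from replicate 2, and the estimate is no bound. Without PB-MP replicate 2, which leaves the libraries with 1 and 3 reads, it was -6.39 at an unadjusted p of 0.00212 in the edgeR fit over all genes and an adjusted p of 0.336. The other libraries left out in turn gave -2.17 to -1.08. With all 6 libraries it was -3.82 in limma-voom (adjusted p = 0.398), -4.44 with voom quality weights (unadjusted p of 0.0359 in the limma fit, adjusted p = 0.186) and -4.20 in edgeR with the replicate block (adjusted p = 0.597). Having 3 reads or fewer in 1 library and at least 1 CPM in another of the same group was seen for 115 of the 17871 genes tested (0.644%), Znrf3 being the 1 gene of the 10 among them. No annotated gene overlaps Znrf3 in the annotation used here.

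**Figure D2:**
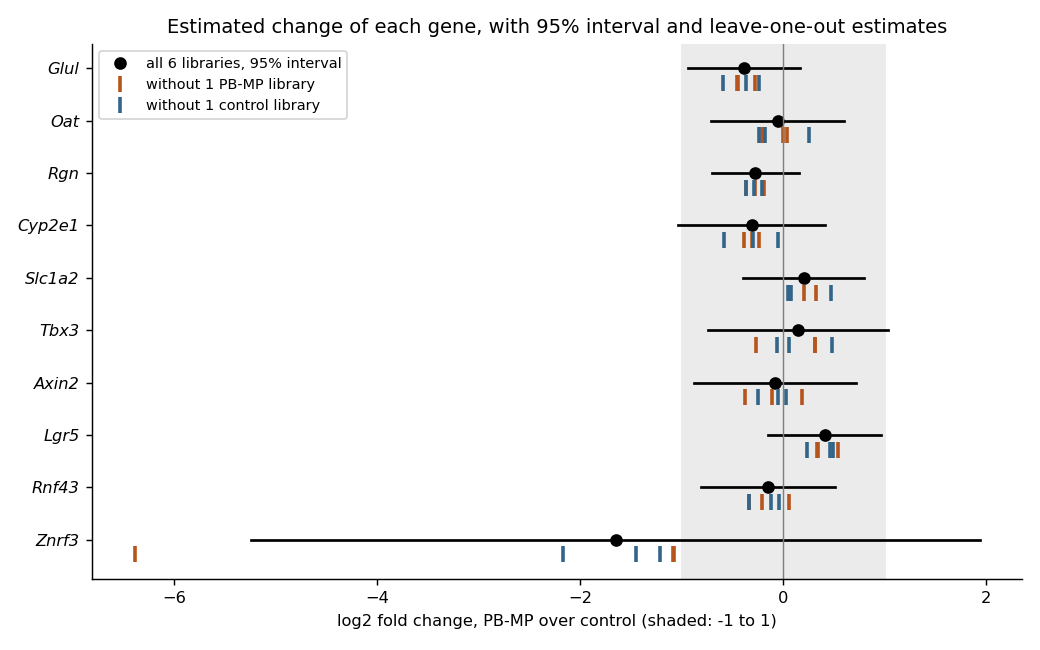
Estimated log2 fold change of each gene, PB-MP over control, with its 95% interval (line) and the 6 estimates that leave out 1 library (ticks, coloured by the group that lost a library). The shaded band spans -1 to 1; the intervals of 7 genes lie inside it, and that of Znrf3 runs from -5.24 to 1.94.

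In the annotation Glul lies on chromosome 1, Slc1a2 on 2, Tbx3 on 5, Oat and Cyp2e1 on 7, Lgr5 on 10, Axin2, Rnf43 and Znrf3 on 11, and Rgn on X. Oat overlaps Fgfr2 on its own strand, which had 432 to 1247 reads in PB-MP and 575 to 701 in control. Glul overlaps the opposite-strand gene Teddm2, which had 91 to 113 reads in PB-MP and 34 to 94 in control. It also overlaps Mir8114 on its own strand, at 42 to 59 reads in PB-MP and 31 to 112 in control. Rnf43 overlaps 1110028F11Rik on its own strand, which had 74 to 172 reads in PB-MP and 79 to 170 in control. Per length of annotated exons, the 10 genes kept the same order in both groups. Cyp2e1 led at 2817 ± 284 CPM per kb in PB-MP and 3486 ± 1257 CPM per kb in control (SD, n = 3 each). Oat, at 574 ± 103 CPM per kb in PB-MP and 596 ± 203 in control, and Rgn, at 479 ± 58.1 CPM per kb in PB-MP and 579 ± 65.7 in control, followed and overlapped each other. Glul came next at 206 ± 29.8 CPM per kb in PB-MP and 269 ± 65.1 in control. Slc1a2, at 12.6 ± 2.36 CPM per kb in PB-MP and 10.9 ± 3.30 in control, and Tbx3, at 4.63 ± 1.997 in PB-MP and 4.18 ± 1.66 in control, formed a middle tier without overlap between them. Rnf43, at 1.69 ± 0.488 CPM per kb in PB-MP and 1.88 ± 0.375 in control, and Axin2, at 1.23 ± 0.480 in PB-MP and 1.30 ± 0.281 in control, overlapped. So did Axin2 and Lgr5, with Lgr5 at 0.705 ± 0.116 CPM per kb in PB-MP and 0.530 ± 0.0999 in control. Znrf3 was last and below Lgr5 in every library, at 0.389 CPM per kb or less.

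The 10 genes together took 0.937% to 1.01% of the reads in PB-MP and 0.672% to 1.27% in control, and most of that was Cyp2e1. Their summed level was 9111 ± 255 CPM in PB-MP and 10953 ± 2978 CPM in control (SD, n = 3 each), with every PB-MP library inside the control range of 7583 to 13233 CPM. Without Cyp2e1 the sum was 3032 ± 384 CPM in PB-MP and 3429 ± 765 CPM in control. The sum of Axin2, Lgr5, Rnf43 and Znrf3 was 25.7 ± 4.62 CPM in PB-MP and 26.9 ± 3.89 CPM in control. Because liver pieces hold many cell types, these levels cannot tell the number of pericentral hepatocytes from the RNA per such cell.

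The genes did not share 1 pattern over the libraries. Control replicate 3 was above the mean of the 6 libraries for Glul, Oat, Rgn, Cyp2e1, Slc1a2, Rnf43 and Znrf3 and below it for Tbx3, Axin2 and, slightly, Lgr5. Control replicate 2 was below the mean for 7 of the 10 and above it for Rgn, Tbx3 and Axin2. Tbx3 and Axin2 were furthest apart in PB-MP replicate 2, at 0.73 above and 0.74 below their own means on the log2 scale. Among 6674 other genes at a mean of at least 10 CPM, those closest to Glul over the 6 libraries were Brpf3, Slc39a11 and Reep6, with root mean square differences of 0.039, 0.066 and 0.067 in centred log2 CPM, where the median gene differed by 0.36. Those closest to Axin2 were Scyl2, Chd9 and Rnf141, at 0.17, 0.19 and 0.19, where the median gene differed by 0.49. With 6 libraries and many candidates, such likeness is a description only.

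**Figure D3:**
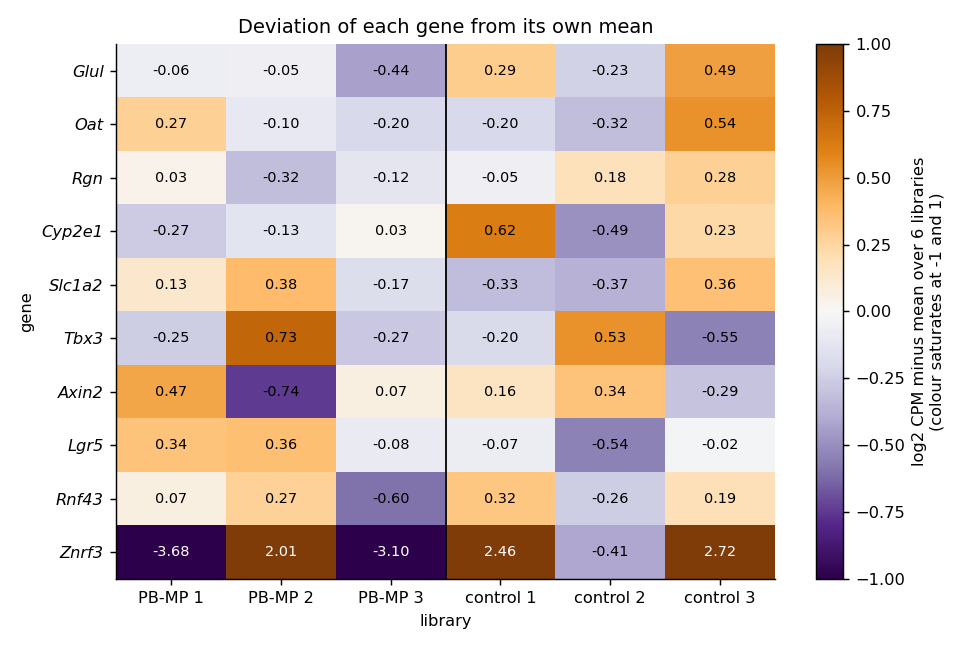
Deviation of log2 CPM from the mean of the 6 libraries for each gene (rows) in each library (columns, PB-MP left of the line and control right of it), with colour saturating at -1 and 1 and the value printed. Tbx3 is highest in replicate 2 of each diet, at 0.73 in PB-MP and 0.53 in control, and Znrf3 spans -3.68 to 2.72.

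The signals that drive the programme were measured too, and calls in this and the following lists are those of edgeR unless DESeq2 is named. Of 25 genes for Wnt ligands, R-spondins and their secretion factors, 11 passed the filter, 9 had no read in any library, and 0 of the 11 were called in either direction, their median log2 fold change being 0.10. Rspo3, the R-spondin of the central vein, stood at 5.77, 6.16 and 4.81 CPM in PB-MP, against 4.83, 6.14 and 6.28 CPM in control, and its log2 fold change was -0.043 ± 0.21 (95% interval -0.54 to 0.45). Wnt2 and Wnt9b, endothelial ligands of the liver, had log2 fold changes of 0.18 ± 0.26 and 0.23 ± 0.39, with overlapping groups. Porcn, the acyltransferase that lipidates Wnt proteins, stood at 2.54, 3.63 and 3.84 CPM in PB-MP and 2.47, 2.26 and 2.07 CPM in control, without overlap (log2 fold change 0.56 ± 0.25, edgeR adjusted p = 0.433). Wnt4 was at -0.45 ± 0.33.

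Receptors gave 0 calls among 12 tested genes, with a median log2 fold change of -0.035. Lgr4, the R-spondin receptor found throughout the lobule, stood at 40.6, 40.8 and 22.7 CPM in PB-MP, against 33.7, 42.3 and 40.1 CPM in control (log2 fold change -0.16 ± 0.25). The coreceptor Lrp5 and the receptor kinase Ror1 had log2 fold changes of -0.18 ± 0.24 and 0.24 ± 0.24. Of 5 tested extracellular inhibitors 0 were called, at a median of -0.12. Notum, a secreted enzyme that inactivates Wnt proteins and is itself a Wnt target, stood at 33.2, 28.7 and 22.4 CPM in PB-MP, against 22.7, 21.5 and 16.9 CPM in control. Only PB-MP replicate 3 lay below a control, and the log2 fold change of Notum was 0.46 ± 0.21 (95% interval -0.033 to 0.96, edgeR adjusted p = 0.435). The Dickkopf receptor Kremen1 was at -0.12 ± 0.24.

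In the cytoplasm, 14 genes of the beta-catenin destruction complex and its regulators gave 0 calls at the adjusted threshold and a median log2 fold change of -0.063. At an unadjusted p below 0.05 there were 2 of the 14 higher in PB-MP, against 7.35% of all genes, and 0 lower, against 4.74%. They were Dvl2 and Dvl1, which encode Dishevelled proteins that relay the signal from Frizzled. Dvl2 stood at 7.96, 8.77 and 11.6 CPM in PB-MP, against 5.47, 4.65 and 3.80 CPM in control, without overlap. The log2 fold change of Dvl2 was 1.02 ± 0.24 (edgeR adjusted p = 0.234, DESeq2 adjusted p = 0.0209), which DESeq2 alone of the 3 tools called. DESeq2 called 1 of the 14, against 2.46% of all genes to which it gave an adjusted p. Dvl1 averaged 59.0 ± 12.8 CPM in PB-MP and 41.4 ± 7.23 CPM in control (SD, n = 3 each), a log2 fold change of 0.51 ± 0.21 (edgeR adjusted p = 0.409).

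Of 13 genes for beta-catenin and its nuclear partners 0 were called, and their median log2 fold change was -0.034. Ctnnb1, which encodes beta-catenin, stood at 126, 135 and 111 CPM in PB-MP and 122, 132 and 126 CPM in control, with a log2 fold change of -0.034 ± 0.14 (95% interval -0.37 to 0.30). Tcf7l2, the main TCF factor of hepatocytes, varied more in control than in PB-MP, at 7.39, 5.47 and 5.44 CPM in PB-MP and 10.3, 7.15 and 2.40 CPM in control (log2 fold change -0.12 ± 0.48). The coactivator Bcl9 was at 0.70 ± 0.29 with an unadjusted edgeR p of 0.0429 in the fit over all genes. It was the 1 gene of the 13 higher in PB-MP at an unadjusted p below 0.05, near the 7.35% of all genes. The repressor-type factor Tcf7l1 was at -0.47 ± 0.30. Among 12 other Wnt target genes 0 were called, at a median of 0.0099. Nkd1, a feedback inhibitor, and Sp5, a transcription factor, had log2 fold changes of 0.075 ± 0.20 and -0.055 ± 0.39, and the proto-oncogene Myc was at -0.52 ± 0.31.

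Other genes of the pericentral zone were lower in estimate more often than not. Of 27 such genes 21 had an estimate below 0, against 49.4% of all genes, the median log2 fold change was -0.15, and 0 passed at the adjusted threshold. These signs depend on the TMM scaling. With library size as the only scaling the median of all genes was 0.23. Only some of the 27 were followed gene by gene under that scaling, and of those Gulo and Sp5 turned to 0.088 and 0.15. How many of the 27 stayed below 0 was not counted. Cyp1a2, a P450 that oxidises aromatic amines, stood at 303, 292 and 178 CPM in PB-MP and 321, 271 and 375 CPM in control (log2 fold change -0.32 ± 0.25). Gulo, the last enzyme of vitamin C synthesis in mice, was at -0.13 ± 0.21, and the secreted protein Lect2 at 0.25 ± 0.29. At an unadjusted p below 0.05 there were 3 of the 27, all lower in PB-MP, against 4.74% of all genes: Gstm1, Gstm3 and Cyp2c29, the last a P450 at a log2 fold change of -0.63 ± 0.18.

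The gene of smallest p among the 27 was Gstm1, a glutathione transferase. Gstm1 stood at 1095, 1050 and 1005 CPM in PB-MP, against 2668, 1780 and 2663 CPM in control, without overlap (log2 fold change -1.17 ± 0.22, edgeR adjusted p = 0.207). Its relative Gstm3 stood at 29.7, 16.8 and 27.5 CPM in PB-MP, against 73.2, 35.9 and 69.8 CPM in control, again without overlap (log2 fold change -1.27 ± 0.33, edgeR adjusted p = 0.250). DESeq2 called these 2 genes of the 27, at adjusted p of 7.67e-04 and 0.0258, against 2.46% of all genes to which it gave an adjusted p. Reads may be split among the close paralogs of this family.

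At the other pole of the lobule, 31 periportal genes had a median log2 fold change of 0.017, with 17 estimates above 0, 14 below and 0 called. Cyp2f2, the P450 that marks periportal cells, stood at 519, 758 and 534 CPM in PB-MP, against 766, 625 and 689 CPM in control (log2 fold change -0.20 ± 0.21), and Pck1, the gluconeogenic enzyme, was at -0.12 ± 0.37. Ctsc, a lysosomal protease, stood at 53.6, 62.0 and 59.8 CPM in PB-MP, against 35.9, 44.0 and 38.4 CPM in control, without overlap (log2 fold change 0.57 ± 0.15, edgeR adjusted p = 0.251). Igfbp2, a binding protein of insulin-like growth factors, was at -0.58 ± 0.19. Summed, periportal genes came to 23177 to 28965 CPM in PB-MP and 23503 to 26893 CPM in control. The other pericentral genes came to 16520 to 21629 CPM in PB-MP and 20798 to 24851 CPM in control. No difference between zones was tested.

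**Figure D4:**
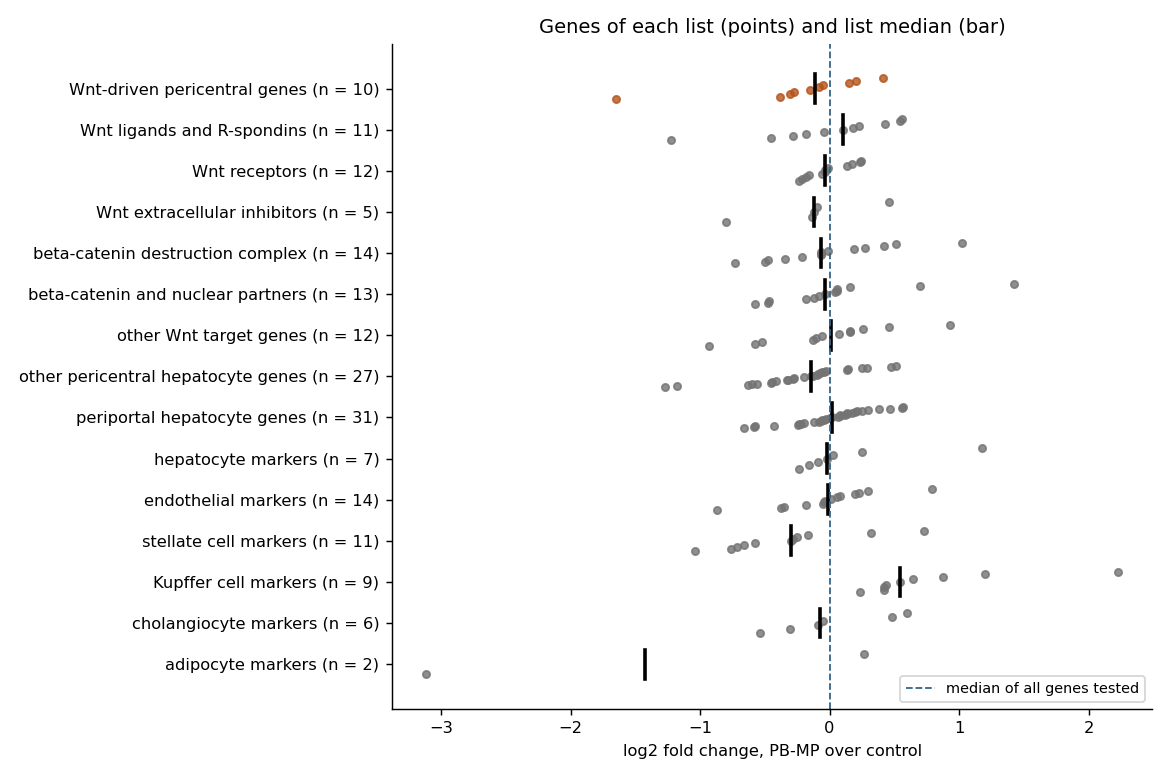
Log2 fold change, PB-MP over control, of every tested gene (points) in the Wnt-driven pericentral genes and 14 other lists, with the list median (bar) and the median of all genes tested (dashed line, 0.0067). Medians lie between -0.15 and 0.10 for the Wnt, pericentral and periportal lists. Kupffer cell markers stand at 0.55, stellate cell markers at -0.30 and the 2 tested adipocyte markers at -1.42.

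Markers of other cell types were followed as well. All 9 Kupffer cell markers had estimates above 0 and 0 were called by edgeR, with a summed level of 143 to 313 CPM in PB-MP and 116 to 150 CPM in control. The scavenger receptor Marco stood at 4.46, 4.61 and 30.3 CPM in PB-MP and 3.38, 3.51 and 1.55 CPM in control. DESeq2 called it alone of the 9 (adjusted p = 0.0352, against 0.360 in edgeR), where it called 2.46% of all genes given an adjusted p. Of 11 stellate cell markers 9 had estimates below 0, and their sum was 231 to 450 CPM in PB-MP and 445 to 460 CPM in control, with the collagen Col1a1 at a log2 fold change of -1.04 ± 0.28 (adjusted p = 0.255 in edgeR and 0.0449 in DESeq2). The 14 endothelial markers, Rspo3 and Wnt9b among them, split 7 above and 7 below 0, with a sum of 89.6 to 142 CPM in PB-MP and 118 to 133 CPM in control. The endothelial adhesion receptor Selp was at 0.79 ± 0.26, while Thbd of the same list was at -0.87 ± 0.29, and Cdh5 had no read in control replicate 1. Of 6 tested cholangiocyte markers 4 were below 0, at a sum of 33.5 to 39.2 CPM in PB-MP and 27.2 to 41.9 CPM in control. Of 2 tested adipocyte markers 1 was below 0, Cfd at -3.11 ± 0.65 (adjusted p = 0.207 in edgeR and 3.15e-05 in DESeq2), the sum being 4.39 to 8.86 CPM in PB-MP and 6.42 to 16.8 CPM in control, and Lep had no read in any library. Of 7 hepatocyte markers 3 had estimates above 0 and 4 below, Apoa1 being at 1.18 ± 0.56 and Alb at 0.025 ± 0.24. The part of these cell types in the pericentral values was not tested.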

How the data were processed

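Liver RNA was enriched for poly(A) transcripts and made into 6 strand-aware libraries, 3 per diet, per the labels' protocols. Of the upstream processing, bcl2fastq and the build GRCm39 are recorded in the submitters' processing notes, while aligner, counter, annotation and strand setting are not stated there or in the labels. Values deposited by the authors are unnormalized read counts for each gene symbol, and 6 of 6 single-library files were identical to their column in the series table. Where rows shared a name, the names were made distinct (872 rows were renamed).

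Genes were filtered with filterByExpr (minimum count 10, minimum total 15), scaled by TMM and tested with the quasi-likelihood test of edgeR 4.0.16 in R 4.3.3, PB-MP against control, at a Benjamini-Hochberg adjusted p below 0.05 over 17871 genes. DESeq2 1.42.0 and limma 3.58.1 (voom) were alternatives, with other scalings and filters, a replicate block and libraries left out. The SE was derived from the F statistic and the estimate, and 95% intervals use the t quantile of the fit. The test was run on simulated data first. Centred log2 CPM used a prior count of 2. Exon lengths and overlaps came from GENCODE annotation on GRCm38, which is not the build of the files, and promoters from RefSeq. The members and lists were chosen with earlier results of these data known. Besides the 10 genes, the text names a set of anchor genes and, in each list, those with the lowest p among genes averaging 1 CPM or more (2, or 1 for cell type markers), with the 3 genes most like Glul and Axin2; 1 gene so selected is not reported here. Cdh5, Thbd, Lep, Cyp2c29 and the genes overlapping members were named after their values were seen. Every pair of libraries differed by more than sampling noise, with a chi-square of 201 or more per degree of freedom.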

Additional observations from a re-analysis of the deposited data

How the results depend on the processing

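Under all 19 alternatives, 0 of the 10 genes passed at an adjusted p below 0.05. Over all genes, edgeR and voom fits called 0 except for 0 to 1 with 1 library left out and 2 when control replicate 2 was left out along with PB-MP replicate 3, and DESeq2 called 513. An unadjusted p below 0.05 was reached by 2161 genes, 1410 with the stricter filter of 1 CPM in 3 libraries, 4185 with voom quality weights, 4316 with that library pair left out, and 1472 to 3338 with 1 library left out. Of the 10 genes, 1 had an unadjusted p below 0.05 with library size only (Lgr5) and 1 with quality weights (Znrf3). There were 2 with that pair left out (Glul, Cyp2e1), 2 when control replicate 2 was left out along with PB-MP replicate 2 (Glul, Znrf3), a pair chosen after seeing the data, and 0 to 2 with 1 library left out. The number of the 10 with an interval within -1 to 1 was 4 to 6 with a pair left out and 3 to 5 with 1 library left out, where fewer samples were fitted. The median of all genes was 0.041 with upper quartile scaling, 0.23 with library size only, 0.055 with no filter, 0.054 in DESeq2, 0.027 with quality weights, 0.032 without ribosomal and mitochondrial genes and -0.0087 to 0.031 with libraries left out. The labels state no pairing by replicate number. Same-numbered deviations correlated at -0.087, 0.094 and 0.082, and other pairs at -0.137 to 0.082. PB-MP replicates 2 and 3 correlated best with the control of their own number, and PB-MP replicate 1 with control replicate 2. Correlations this small cannot settle whether same-numbered libraries share a batch. With the replicate block 0 genes were called and 1836 had an unadjusted p below 0.05, 0 of them among the 10, and 5 of the 10 had an interval within -1 to 1.

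Signs turned for estimates that lay between -0.20 (Cyp2f2) and 0.25 (Lect2) in the main fit, and the cause was not tested. With library size as the only scaling, the log2 fold change was 0.17 for Oat, 0.16 for Axin2, 0.059 for Rnf43, 0.032 for Lrp5, 0.10 for Kremen1, 0.088 for Gulo, 0.15 for Sp5, 0.19 for Ctnnb1, 0.10 for Tcf7l2, 0.065 for Lgr4, 0.18 for Rspo3, 0.0078 for Cyp2f2 and 0.097 for Pck1. In limma-voom, the log2 fold change was 0.16 for Tcf7l2. With voom quality weights, the log2 fold change was 0.0042 for Oat, 0.057 for Axin2, 0.027 for Kremen1, 0.015 for Ctnnb1, 0.44 for Tcf7l2, 0.0098 for Lgr4, 0.018 for Rspo3 and -0.016 for Alb. With the replicate block, the log2 fold change was 0.0056 for Sp5 and 0.091 for Tcf7l2. With 1 or 2 libraries left out, the ranges that crossed 0 were -0.38 to 0.31 for Axin2, -0.26 to 0.093 for Kremen1, -0.00026 to 0.52 for Lect2, -0.10 to 0.057 for Ctnnb1, -0.53 to 0.36 for Tcf7l2, -0.29 to 0.13 for Lgr4, -0.16 to 0.088 for Rspo3, -0.45 to 0.19 for Pck1, -0.084 to 0.085 for Alb, -0.095 to 0.47 for Slc1a2, -0.16 to 0.14 for Nkd1, -0.11 to 0.50 for Wnt9b, -0.27 to 0.67 for Tbx3, -0.24 to 0.25 for Oat, -0.52 to 0.061 for Rnf43, -0.46 to 0.023 for Lrp5 and -0.46 to 0.27 for Sp5. Of 664 values of other named genes under the alternatives, 619 kept the sign and 6 passed the threshold, all 6 in DESeq2 (Dvl2, Gstm1, Gstm3, Col1a1, Marco and Cfd). The 1 and 3 reads of Znrf3 in PB-MP replicates 1 and 3 leave its level there imprecise; their cause was not tested.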
